A study of Populus alba x Populus glandulosa with 12 samples.

Results

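The 11 gene models described here are those whose KEGG orthology (KO) name in the deposited annotation is rbcS, the small subunit of Rubisco (8 genes), or PRK, phosphoribulokinase (3 genes), out of 85392 gene models in all. They were measured by RNA sequencing of whole leaves of wild-type 84K poplar, the hybrid tree Populus alba x Populus glandulosa. All plants belong to 1 drought series sampled at 0 days (the control, labelled CK), 3 days, 6 days and 9 days, with 3 libraries per day and 12 libraries in all. Every library carries the same genotype and the drought treatment label, and the sources used here give no age, water status or hour of sampling. The labels give each day a batch of its own, and no watered plants were sampled on the later days, so the effects of drought, elapsed time and batch cannot be told apart here.

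Rubisco fixes CO2 onto ribulose bisphosphate in the chloroplast stroma. Its large subunit is encoded in the plastid genome and its small subunit by a family of nuclear genes, whose transcripts are among the most abundant in photosynthetic leaf cells. Phosphoribulokinase, also nuclear-encoded, uses ATP to make the ribulose bisphosphate that Rubisco consumes, so the pair close the carbon-fixing and the acceptor-regenerating ends of the Calvin cycle.

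The tables hold FPKM, a read-based level per length of transcript and per library, which allows levels to be compared between genes. Genes are called below by KO name and by the letter and number in the identifier, so that Pag.B17G000435.v3.1 is rbcS B17. The 40736 genes with at least 1 FPKM in at least 3 libraries were tested with limma on log2(FPKM + 1), and a gene is said to rise or fall where the p-value adjusted over all of them was under 0.05. Of the members, 9 were tested (6 rbcS and all 3 PRK). The other members, rbcS A06 (Pag.A06G001285.v3.1), listed at 0 in every library, and rbcS A18 (Pag.A18G000669.v3.1), between 0.06 and 1.59 FPKM, were too low. FPKM sums lay between 684857 and 732119 per library, and libraries of the same day correlated at a Pearson r of 0.969 to 0.976 across tested genes. Read depth is not known, so no counting error is given. Separate plants are not documented for the replicates, so the p-values cover no more than the scatter of these libraries, and that scatter may be technical. Light-harvesting antenna genes, taken as markers of leaf mesophyll, summed to between 20527 and 21070 FPKM at day 0. Whole leaf was sequenced, so fewer mesophyll cells and less RNA per cell cannot be told apart.

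Rubisco small subunit transcript was dominated by a pair of genes, and nearly all of it was gone by day 6. Summed over the 8 genes, rbcS stood at 5300 ± 81.0 FPKM (SD, n = 3) at day 0, 2707 ± 45.6 at day 3, 205 ± 5.73 at day 6 and 244 ± 23.5 at day 9. That sum was 51.1% of its day 0 value at day 3, 3.87% at day 6 and 4.61% at day 9, and its share of all FPKM in a library went from 0.727% to 0.0298% between days 0 and 6. The 3 PRK genes together declined far less, from 184 ± 6.36 FPKM at day 0 to 156 ± 1.25 at day 3, 74.2 ± 0.317 at day 6 and 76.6 ± 0.603 at day 9, which left 40.4% at day 6. PRK B03 made up 86.2% of that sum at day 0, and its reads may not all come from phosphoribulokinase sequence, as described below.

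**Figure D1:**
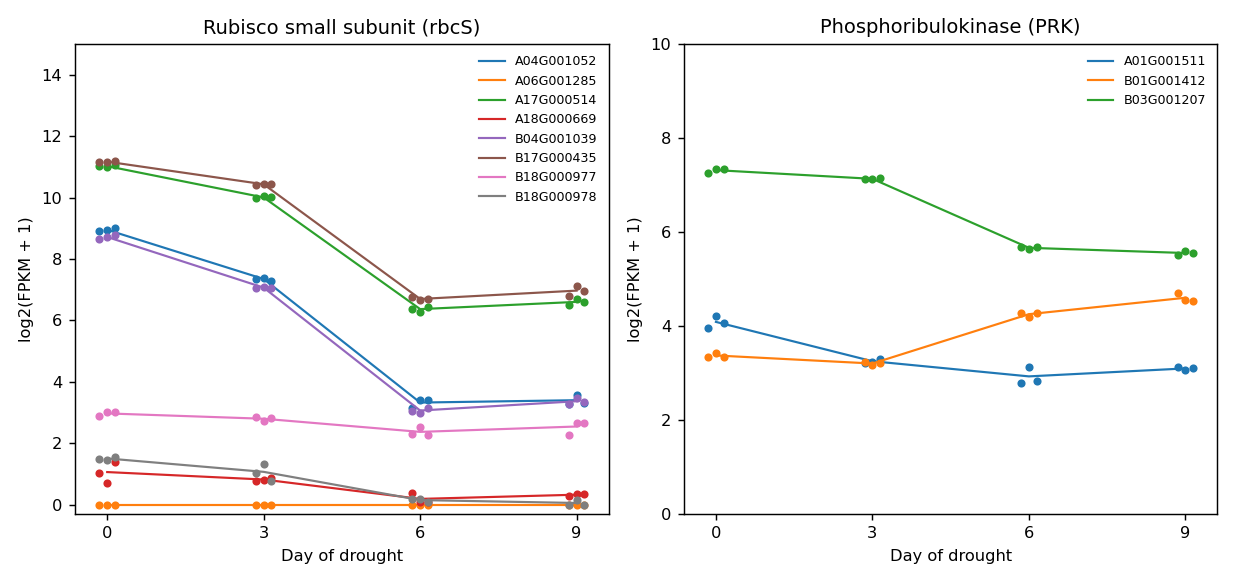
Level of each rbcS gene (left) and each PRK gene (right) as log2(FPKM + 1) by day of drought. Points are single libraries, 3 per day, and lines join the levels of the daily means. The 4 abundant rbcS genes drop steeply between days 3 and 6, whereas PRK B01 is the only line that ends above its start.

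The most abundant member was rbcS B17 (Pag.B17G000435.v3.1), at 2283.11, 2300.13 and 2316.51 FPKM at day 0, 1357.87, 1393.32 and 1388.03 at day 3, 106.47, 99.71 and 101.91 at day 6 and 110.55, 138.15 and 123.85 at day 9. Day 0 and day 3 libraries were each far apart from all later ones, and days 6 and 9 lay close together. By mean FPKM among all gene models it ranked number 6 at day 0, 23 at day 3, 847 at day 6 and 636 at day 9. Its log2 change was -0.74 (SE 0.06) at day 3, -4.47 (SE 0.06) at day 6 and -4.21 (SE 0.06) at day 9, with adjusted p from limma of 1.68e-06, 8.88e-14 and 1.50e-13.

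The gene with the same number on the A side, rbcS A17 (Pag.A17G000514.v3.1), held 2068.32, 2049.46 and 2117.48 FPKM at day 0, 1001.99, 1048.13 and 1024.24 at day 3, 81.6, 77.12 and 85.64 at day 6 and 89.57, 103.54 and 95.13 at day 9. It stood below B17 in all 12 libraries and followed the same course. Its changes were -1.02 (SE 0.05), -4.66 (SE 0.05) and -4.42 (SE 0.05) on days 3, 6 and 9, with adjusted p from limma of 2.05e-08, 1.57e-14 and 2.63e-14. A17 and B17 made up 39.2% and 43.4% of the rbcS sum at day 0.

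A second pair sat at a lower level and fell by more. rbcS A04 (Pag.A04G001052.v3.1) was at 481.61, 485.78 and 511.28 FPKM at day 0, 162.33, 167.28 and 155.72 at day 3, 7.76, 9.63 and 9.62 at day 6 and 8.79, 10.89 and 8.97 at day 9. rbcS B04 (Pag.B04G001039.v3.1) went from 398.33, 422.22 and 436.38 FPKM at day 0 through 130.9, 135.53 and 132.25 at day 3 to 7.26, 6.96 and 7.84 at day 6, and read 8.67, 10.11 and 9.15 at day 9. Neither gene overlapped between day 0, day 3 and the later days. A04 changed by -1.60 (SE 0.09), -5.63 (SE 0.09) and -5.55 (SE 0.09) on days 3, 6 and 9, and B04 by -1.65 (SE 0.06), -5.65 (SE 0.06) and -5.35 (SE 0.06), with adjusted p from limma of at most 3.32e-08. As means, 1.83% of the day 0 level of A04 and 1.76% of that of B04 was left at day 6, against 3.92% of A17 and 4.47% of B17. The share of A04 in the rbcS sum thus went from 9.30% to 4.4%, while that of B17 went from 43.4% to 50.1%.

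The remaining rbcS genes were barely expressed. rbcS B18 (Pag.B18G000977.v3.1) read 6.43, 7.05 and 7.01 FPKM at day 0, 6.2, 5.59 and 6.03 at day 3, 3.93, 4.74 and 3.81 at day 6 and 3.76, 5.37 and 5.35 at day 9. Day 3 did not pass the test (log2 change -0.17, SE 0.11, adjusted p from limma 0.229), although its libraries lay just below those of day 0. Its falls of -0.61 (SE 0.11) at day 6 and -0.44 (SE 0.11) at day 9 passed, with adjusted p from limma of 3.89e-04 and 0.00371, and under median-ratio scaling of the libraries they were -0.37 and -0.25, with adjusted p of 0.00852 and 0.0511. With a pseudocount of 5 they were -0.37 and -0.27, still called. The neighbouring model Pag.B18G000978.v3.1 was at 1.78, 1.76 and 1.96 FPKM at day 0, 1.05, 1.51 and 0.72 at day 3, 0.13, 0.13 and 0.06 at day 6 and 0, 0.11 and 0 at day 9. It passed the filter only through its day 0 and day 3 values, so a fall to days 6 and 9 was fixed by the filter and is a description. Its log2 changes of -0.45, -1.36 and -1.45 (SE 0.13 each) depended on the pseudocount. They were -0.75, -3.24 and -3.91 with 0.1, where the day 3 change was not called (adjusted p from limma 0.149), and -0.17, -0.42 and -0.44 with 5.

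Of the 6 rbcS genes that passed the filter, 5 were called lower at day 3 (4 with a pseudocount of 0.1) and 6 on days 6 and 9, and 0 higher. These counts include Pag.B18G000978.v3.1, whose fall the filter fixed. The background is broad: 25.2% of all tested genes fell at day 3, 47.6% at day 6 and 46% at day 9. The counts therefore support nothing by themselves. As a description, the median log2 change over these 6 genes was -0.88, -4.56 and -4.31 on the 3 days beside medians of -0.01, -0.21 and -0.18 over all tested genes. The same 6 genes lay below day 0 with no overlap on each later day, as did 30.5% of all tested genes at day 3, 49% at day 6 and 47.2% at day 9.

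**Figure D2:**
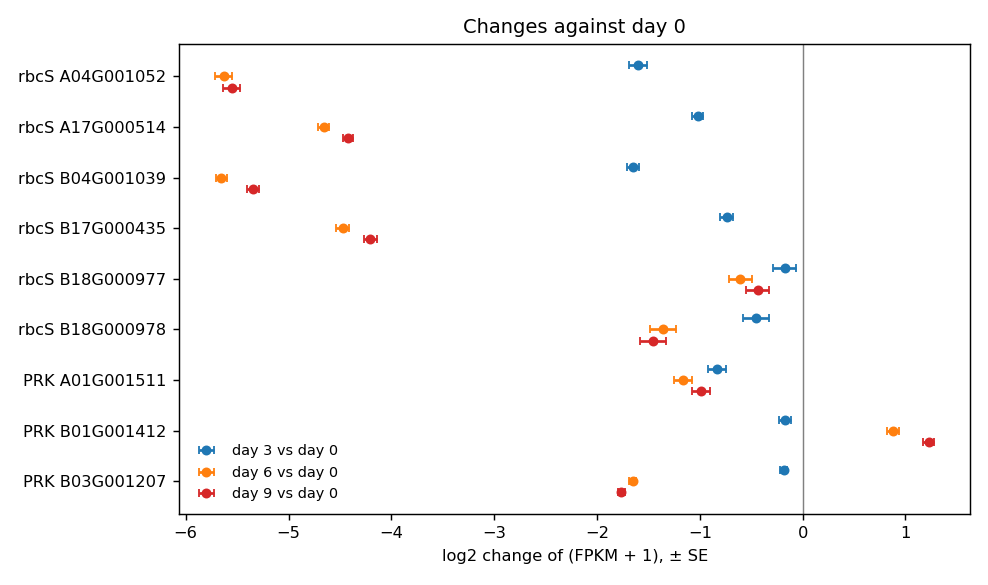
Log2 change of (FPKM + 1) against day 0 for the 9 tested members on days 3, 6 and 9, with bars of 1 standard error from limma on 12 libraries. The A04 and B04 small subunit genes lie near -5.6 at day 6 and the A17 and B17 genes near -4.5, while the PRK genes lie between -1.65 and 0.88.

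The 3 phosphoribulokinase genes did not move together. PRK B03 (Pag.B03G001207.v3.1) supplied 86.2% of the PRK sum at day 0, at 152.47, 160.14 and 162.04 FPKM, and read 138.08, 138.91 and 140.08 at day 3, 49.92, 48.94 and 49.97 at day 6 and 44.35, 47.04 and 46.21 at day 9. Each day lay below the one before it with no overlap. The changes were -0.18 (SE 0.03) at day 3, -1.65 (SE 0.03) at day 6 and -1.76 (SE 0.03) at day 9, with adjusted p from limma of 8.81e-04, 1.83e-12 and 1.15e-12. This gene model also carries the GO terms protein transport and transport vesicle membrane. The term transport vesicle membrane is carried by all 12 models named SCAMP (secretory carrier membrane proteins). Of the 3 models with the term phosphoribulokinase activity, B03 is the 1 model that also carries transport vesicle membrane. Whether all of its reads come from phosphoribulokinase sequence cannot be read from the table.

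PRK A01 (Pag.A01G001511.v3.1) was a minor gene, at 14.59, 17.52 and 15.78 FPKM at day 0, 8.31, 8.35 and 8.83 at day 3, 5.92, 7.72 and 6.14 at day 6 and 7.72, 7.35 and 7.55 at day 9. It had dropped by day 3, and the later days stayed lower still. Its changes were -0.83, -1.16 and -0.99 (SE 0.09 each), with adjusted p from limma of 1.13e-05, 1.73e-07 and 7.84e-07.

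PRK B01 (Pag.B01G001412.v3.1) was the member that rose. It was at 9.12, 9.8 and 9.1 FPKM at day 0, 8.35, 7.99 and 8.2 at day 3, 18.33, 17.26 and 18.44 at day 6 and 25.06, 22.41 and 22.2 at day 9. The day 3 libraries lay slightly below day 0, and those of days 6 and 9 above everything earlier. The rises of 0.88 (SE 0.06) and 1.23 (SE 0.06) had adjusted p from limma of 3.27e-08 and 1.55e-09. The small fall at day 3, -0.17 (SE 0.06, adjusted p from limma 0.0247), was not called without replicate 2 of day 0 (0.0942) or without replicate 2 or 3 of day 3 (0.0727 and 0.0542). B01 made up 5.09% of the PRK sum at day 0 and 30.3% at day 9. Thus 3 PRK genes fell at day 3, when 25.2% of all tested genes fell. On days 6 and 9, 2 PRK genes fell and 1 rose. Of all tested genes 47.6% fell and 29.2% rose at day 6, and 46% fell and 30.9% rose at day 9. B01 lay above day 0 with no overlap on both days, as did 30.4% of all tested genes at day 6 and 32% at day 9.

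The order of the members by level changed with these shifts. On day 0 it ran B17, A17, A04 and B04 of rbcS, then PRK B03, PRK A01, PRK B01 and rbcS B18, and no neighbours in that order overlapped between libraries. On day 6 PRK B03 and PRK B01 both stood above rbcS A04 and B04, and A04 overlapped B04 while B04 overlapped PRK A01. On day 9 A04 and B04 again overlapped each other, and PRK A01 lay below both.

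Whether genes within the families changed by different amounts was compared through their ratio within each library. The ratio of B17 to A17 was 1.11 ± 0.0144 (SD, n = 3) at day 0, 1.35 ± 0.0149 at day 3, 1.26 ± 0.0631 at day 6 and 1.29 ± 0.0510 at day 9, and each later day lay above day 0 with no overlap. The ratio of B04 to A04 was 0.850 ± 0.0213 at day 0, 0.822 ± 0.0237 at day 3 and 0.824 ± 0.107 at day 6, overlapping throughout, and 0.978 ± 0.0464 at day 9, above day 0. PRK B01 went from 0.587 ± 0.0341 of the level of PRK A01 at day 0 to 0.963 ± 0.0385 at day 3, 2.78 ± 0.472 at day 6 and 3.08 ± 0.155 at day 9. rbcS A04 fell from 0.237 ± 0.00430 of A17 at day 0 to 0.158 ± 0.00520, 0.111 ± 0.0149 and 0.0992 ± 0.00552 on days 3, 6 and 9.

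Across families, PRK B03 stood at 0.0761 ± 0.00224 of the level of rbcS A17 at day 0 and at 0.610 ± 0.0256 of it at day 6, a difference between their log2 changes of 3.00 (SE 0.04). rbcS B18 differed from A17 by more, 4.05 (SE 0.13) at day 6. Ratios were compared with day 0 in 18 comparisons in all. Exact two-sided permutation tests over libraries gave p = 0.1 wherever the groups did not overlap, which is the smallest that 3 against 3 libraries allow, and 0.1125 after adjustment over the 18. The 2 comparisons that overlapped, B04 to A04 on days 3 and 6, had exact permutation p of 0.2 and 0.8, with differences of log2 change of -0.05 (SE 0.03) and -0.02 (SE 0.10). Genes with near-identical sequences share reads, and the sources used here do not say how such reads were divided, so the split between an A and a B gene is less certain than their sum.

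**Figure D3:**
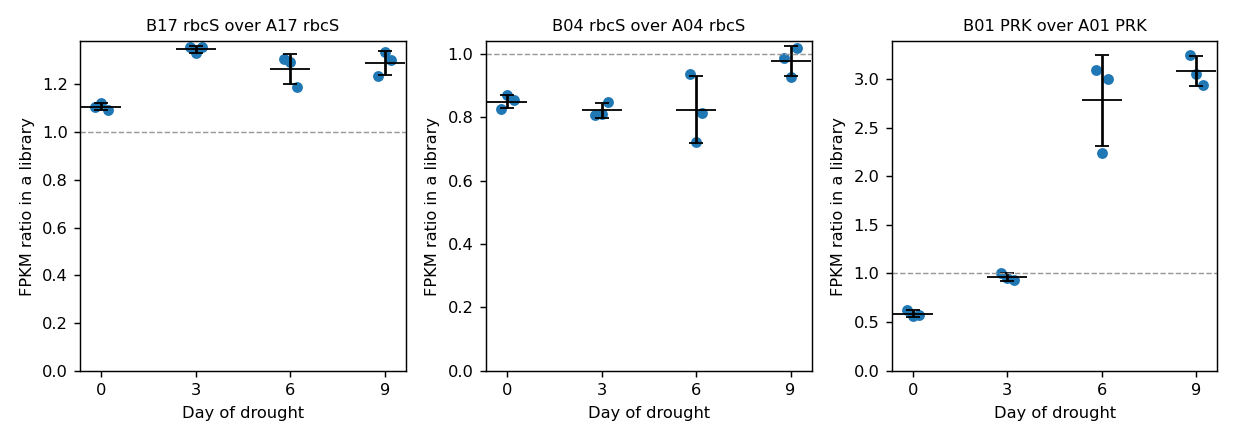
FPKM ratio within each library for rbcS B17 over A17, rbcS B04 over A04 and PRK B01 over A01, by day of drought. Points are libraries, horizontal bars the mean of 3 and error bars the SD, and the dashed line marks equal levels. The PRK ratio crosses from 0.587 at day 0 to 3.08 at day 9, whereas the mean rbcS ratios lie between 0.822 and 1.35.

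The steps between sampling days were tested directly. From day 3 to day 6 all 6 tested rbcS genes fell further, with log2 changes of -4.03 for A04, -4.00 for B04, -3.64 for A17 and -3.74 for B17, where 46.9% of all tested genes fell. The fall of rbcS B18 (Pag.B18G000977.v3.1) in this step, -0.43 (adjusted p from limma 0.00454), was not called under median-ratio scaling (-0.20, 0.119). PRK B03 fell by 1.47 and PRK B01 rose by 1.05, where 25.7% rose. PRK A01 fell by 0.33 (adjusted p from limma 0.00537), a call that was lost under median-ratio scaling (-0.09, adjusted p 0.412). From day 6 to day 9, 3 of 6 tested rbcS genes were called higher and 3 were not called. A17, B17 and B04 rose by 0.23 (SE 0.05), 0.27 (SE 0.06) and 0.30 (SE 0.06), with adjusted p from limma of 0.00803, 0.0110 and 0.00373. The changes that did not pass were 0.08 (SE 0.09, adjusted p from limma 0.577) for A04, 0.17 (SE 0.11, 0.329) for Pag.B18G000977.v3.1 and -0.10 (SE 0.13, 0.650) for Pag.B18G000978.v3.1. In this step 12.9% of all tested genes rose. In this step PRK B01 rose again, by 0.35 (SE 0.06, adjusted p from limma 0.00132). PRK B03 fell by 0.11 (SE 0.03, adjusted p 0.0392), where 8.73% fell, but this call was lost in 11 of 20 alternatives, with adjusted p of up to 0.105. The B17 rise had an adjusted p of 0.0527 when only the libraries of days 6 and 9 were fitted.

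Models named rbcL, after the plastid-encoded large subunit, showed no called change against day 0. The 6 tested ones carry A or B identifiers of the same form as the nuclear genes. Whether their reads come from the plastid gene is not known, so its transcript level cannot be taken from them. Summed over 61 models named rbcL, the level was 129 ± 47.9 FPKM at day 0, 138 ± 48.2 at day 3, 101 ± 16.0 at day 6 and 100.2 ± 27.0 at day 9, with overlapping libraries. Of the 6 tested rbcL models 0 were called against day 0 on any day by limma, and 1 fell between days 3 and 6. The spread between libraries of a day was wide, and the sources used here do not say how mRNA was selected.

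The list of other Calvin cycle enzymes held 73 tested genes, among them the 6 rbcL models above, which were not called against day 0. Of the 73, 35 fell and 12 rose at day 3, and 48 fell and 11 rose at day 6. At day 9, 47 fell and 14 rose. The median log2 changes were -0.12, -0.92 and -0.97 on the 3 days. For this and the following lists, the shares over all tested genes were 25.2% lower and 22.6% higher at day 3, 47.6% and 29.2% at day 6 and 46% and 30.9% at day 9. Under median-ratio scaling the day 6 counts were 46 and 19. Both sedoheptulose-bisphosphatase genes (KO name E3.1.3.37), which act in regenerating the acceptor, fell at day 6, with a median of -4.24, and so did all 7 GAPA genes of the plastid glyceraldehyde phosphate dehydrogenase (median -2.32), all 9 FBP genes of fructose bisphosphatase (median -1.74) and all 4 transketolase genes (median -2.56). Transketolase Pag.A02G001222.v3.1 showed the largest fall of the list, from 66.6 ± 3.18 to 2.40 ± 0.326 FPKM. A ribose phosphate isomerase, rpiA Pag.A10G001336.v3.1, had the largest rise, from 8.66 ± 0.617 to 50.4 ± 4.90 FPKM. Genes for triose phosphate isomerase and phosphoglycerate kinase, whose KO names also cover cytosolic glycolysis, were mixed, with 5 lower and 1 higher of 9, and 4 lower and 1 higher of 6. The names ALDO (9 lower and 4 higher of 15), rpiA (6 and 3 of 11) and rpe (2 and 2 of 4) were mixed too.

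Photorespiration salvages the product of the oxygenase reaction of Rubisco. Of its 60 tested genes 35 fell and 8 rose at day 3 (median -0.32), and 44 fell and 13 rose at day 6 (median -0.96). At day 9, 41 fell and 8 rose (median -0.86). Under median-ratio scaling 38 fell and 15 rose at day 9, while 15380 of all genes tested under that scaling fell and 15655 rose. The gcvH models Pag.A12G000205.v3.1 and Pag.A12G002176.v3.1 had identical changes at day 6 (-0.96, SE 0.10) and were counted separately. The glycine decarboxylase gene GLDC Pag.B06G000555.v3.1 fell the most at day 6, from 99.0 ± 6.23 to 3.01 ± 0.325 FPKM, and the serine hydroxymethyltransferase gene SHMT Pag.A17G001228.v3.1 rose the most, from 11.2 ± 0.511 to 59.4 ± 2.23 FPKM. The list of Rubisco helpers held 22 tested genes and was made up mostly of chaperonins, whose names cover mitochondrial forms too. On day 6, 10 of these fell and 12 rose, with a median of 0.18. The share lower was near the 47.6% of all tested genes, and the share higher was above their 29.2%. The largest fall was that of groEL Pag.B10G001293.v3.1, from 24.2 ± 0.829 to 2.19 ± 0.287 FPKM. The largest rise was that of groEL Pag.A03G000527.v3.1, from 1.83 ± 0.135 to 5.31 ± 0.362 FPKM. Both tested genes of the methyltransferase of the Rubisco large subunit (RBCMT) fell, with a median of -1.92.

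Enzymes of C4-type carboxylation, which in poplar leaves serve other roles than carbon concentration, were mixed. At day 6, 11 of 27 were lower and 14 higher (median 0.28). The share lower was no larger than the 47.6% of all tested genes, and the share higher was above their 29.2%. The phosphoenolpyruvate carboxykinase gene pckA Pag.B07G001461.v3.1 rose from 2.85 ± 0.125 to 41.8 ± 3.00 FPKM, and the phosphoenolpyruvate carboxylase gene ppc Pag.A02G000531.v3.1 fell from 15.7 ± 0.272 to 1.8 ± 0.0656 FPKM. Among ferredoxins and ferredoxin-thioredoxin reductase, which pass electrons to the thiol switch that controls phosphoribulokinase, 14 of 22 fell and 4 rose at day 6 (median -1.06). The largest fall was petF Pag.A10G001046.v3.1, from 44.0 ± 8.55 to 1.14 ± 0.935 FPKM, and the largest rise petF Pag.B04G001966.v3.1, from 3.74 ± 0.356 to 7.1 ± 1.15 FPKM.

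**Figure D4:**
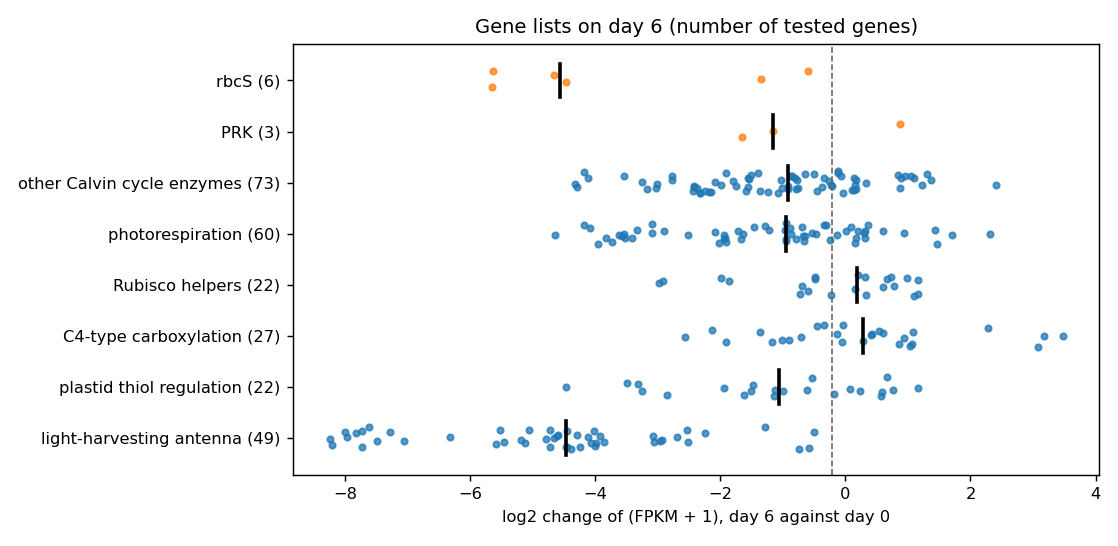
Log2 change of (FPKM + 1) at day 6 against day 0 for each tested gene of 8 lists, with the number of tested genes in brackets. Thick bars are medians and the dashed line is the median of all tested genes, -0.21. The rbcS median of -4.56 lies beside that of the antenna genes (-4.47), and the other carbon fixation lists centre near -1 or above.

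The summed antenna genes declined alongside the rbcS sum up to day 6. All 49 tested antenna genes fell at day 6, when 47.6% of all tested genes fell and 29.2% rose. The antenna models Pag.A02G000488.v3.1 and Pag.A02G000528.v3.1 had identical changes at day 6 (-4.72) and were counted separately. The summed antenna level was 52.4% of day 0 at day 3, 3.54% at day 6 and 3.51% at day 9, beside 51.1%, 3.87% and 4.61% for rbcS. From day 6 to day 9, 6 antenna genes fell, 10 rose and 33 were not called. In that step 8.73% of all tested genes fell and 12.9% rose. The guard cell markers FAMA and SLAC1 or SLAH, of which 7 to 9 of 16 models were above 0 in a library, summed to 26.9 to 32.6 FPKM in day 0 libraries and 42.2 to 49.8 FPKM in day 6 libraries. The genes behind that sum moved in opposite directions. All 4 tested FAMA genes fell at day 6, by log2 changes of -1.68 to -2.19, beside the 47.6% of all tested genes given above. FAMA Pag.A01G003554.v3.1 had means of 6.23 and 4.64 FPKM on days 0 and 3, and of 0.577 and 0.447 on days 6 and 9. It passed the filter only through days 0 and 3, so its fall was fixed by the filter and is a description. Of the 3 tested SLAC1 or SLAH genes 2 rose, beside the 29.2% of all tested genes given above. One of these, Pag.A15G001210.v3.1, went from 1.69 ± 0.176 to 23.8 ± 0.668 FPKM and makes up much of the day 6 sum. The xylem marker XCP, with 7 or 8 of 8 models above 0, summed to 67.7 to 83.0 FPKM in day 0 libraries and 31.2 to 37.6 FPKM in day 6 libraries. The part of any shift in cell types in the fall of rbcS was not tested.

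Genes with profiles most like each family were taken from 13810 other tested genes with a KO name, by the root-mean-square difference of log2(FPKM + 1), centred at day 0, over the 9 drought libraries. Closest to the rbcS sum was psbY Pag.B10G000434.v3.1, a photosystem II protein, at a difference of 0.140, followed by RRM1 Pag.B05G000923.v3.1 (0.140), psbO Pag.A07G001901.v3.1 of the oxygen-evolving complex (0.161), psaO Pag.A04G001985.v3.1 of photosystem I (0.172) and MSL4S Pag.B06G001418.v3.1 (0.175). psbO went from 578 ± 11.8 FPKM at day 0 through 348 ± 14.6 and 22.8 ± 0.779 to 26.5 ± 3.65 at day 9. RRM1 went from 25.5 ± 0.755 FPKM at day 0 to 0.12 ± 0.0346 at day 6, and MSL4S from 66.0 ± 1.27 to 1.41 ± 0.0757. Both kept a smaller part of their day 0 FPKM than the rbcS sum did. Their small differences on the log2(FPKM + 1) scale depend on the added 1, which understates changes at such low levels. For the PRK sum, which mostly reflects B03, the closest were a ribosomal protein named RP-L29 (Pag.A07G002511.v3.1, 0.0632), ATAD1 (Pag.A12G001418.v3.1, 0.0643), aguA (Pag.B15G000928.v3.1, 0.0656), the chlorophyll synthase chlG (Pag.B06G001893.v3.1, 0.0665) and RAB1A (Pag.B04G002211.v3.1, 0.0743). For PRK B01 they were NUDC (Pag.B15G001346.v3.1, 0.0737), an aspartic protease named E3.4.23.40 (Pag.B04G000080.v3.1, 0.0949), DNAJC2 (Pag.B03G002093.v3.1, 0.0968), TBCCD1 (Pag.A16G001003.v3.1, 0.122) and DDX39B (Pag.B18G000280.v3.1, 0.125). NUDC rose from 16.3 ± 0.917 FPKM at day 0 to 40.2 ± 1.70 at day 9.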

How the data were processed

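The authors deposited FPKM per gene and library as tables, per the file names and headers, together with FPKM means per day. Aligner, genome build, strand handling and FPKM software: not given in the sources used here. Spacing of low FPKM values gave no clear relative depth. Column names were matched to samples through their titles and descriptions. Values were used as log2(FPKM + 1), which understates changes of low genes. All 12 libraries entered 1 limma 3.58.1 fit with a coefficient for each day (trend and robust options, R 4.3.3), and p-values were adjusted by Benjamini-Hochberg within a comparison over the 40736 genes with at least 1 FPKM in at least 3 libraries. The procedure was tried on simulated data with falls planted at day 3 and independent noise in each library. That simulation checked only whether such falls were found. False calls, genes at low level and scatter shared between libraries were not checked. Ratios were compared with exact permutation tests (scipy 1.17.1). Tables and figures used Python 3.11.15, pandas 2.3.3, numpy 2.4.6 and matplotlib 3.10.9.

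Every gene that the KO rule selected is named. From each pathway list the called genes with the largest fall and rise at day 6 are named, and for likeness the 5 closest genes, 1 per KO name, with at least 5 FPKM on their highest day. Members and lists were chosen with earlier results of these data known. List names RCA, CP12, cbbY, gap2, glpX, FBA, PPCK, FTRB and NTRC matched no gene. The authors' deposited tables of selected genes for days 3 and 6 are identical and hold rbcS A04 and B04 only among the members, and that for day 9 holds 6 rbcS genes and 1 PRK gene. No reference sequences were used here.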

Additional observations from a re-analysis of the deposited data

Results flagged for a closer look

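The change against day 0 differed between days 3 and 6 for all 9 tested members, by limma's test of the difference itself. This is the day 3 to day 6 step given above, in which 46.9% of all tested genes fell and 25.7% rose. The low day 6 level of Pag.B18G000978.v3.1 was fixed by the filter. Under median-ratio scaling the calls of Pag.B18G000977.v3.1 and Pag.A01G001511.v3.1 were lost (adjusted p from limma 0.119 and 0.412). Day 6 minus day 3 was -4.03 for rbcS Pag.A04G001052.v3.1, -4.00 for Pag.B04G001039.v3.1, -3.64 for Pag.A17G000514.v3.1, -3.74 for Pag.B17G000435.v3.1, -0.43 for Pag.B18G000977.v3.1 and -0.90 for Pag.B18G000978.v3.1 on the log2 scale. For PRK it was -0.33 for Pag.A01G001511.v3.1, 1.05 for Pag.B01G001412.v3.1 and -1.47 for Pag.B03G001207.v3.1. Between days 6 and 9 the change differed for 5 members, where 8.73% of all tested genes fell and 12.9% rose. It differed by 0.23 for rbcS Pag.A17G000514.v3.1, 0.27 for Pag.B17G000435.v3.1 and 0.30 for Pag.B04G001039.v3.1. For PRK it differed by 0.35 for Pag.B01G001412.v3.1 and -0.11 for Pag.B03G001207.v3.1. When only the libraries of both days were fitted, adjusted p from limma was 0.0527 for Pag.B17G000435.v3.1 and 0.102 for Pag.B03G001207.v3.1. With 3 libraries a day, no group was large enough to test for a library far from the others.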

How the results depend on the processing

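Counts of members called lower or higher in the 5 comparisons stayed within 1.5 times the reported count in 387 cases and moved further in 13. Under median-ratio scaling 1 PRK gene in place of 2 fell from day 3 to day 6. From day 6 to day 9, 0 PRK genes in place of 1 fell without the trend and robust options and when the 6 libraries of both days were fitted alone; leaving out 1 library at a time gave 0 to 1 PRK genes lower and 1 to 2 higher. The uncalled change of rbcS A04 from day 6 to day 9 turned to -0.016 without replicate 1 of day 6 and to -0.012 without replicate 2 of day 9, in a range of -0.016 to 0.128 over single libraries left out. Without replicate 1 of day 9 rbcS B18 passed in that step (0.31, adjusted p from limma 0.0322), and without replicate 2 of day 6 so did PRK A01 (0.28, 0.0260). Median-ratio scaling raised the median change of all tested genes by 0.23 at day 6 and 0.18 at day 9. It moved the share of calls that were lower from 62.0% to 49.1% at day 6, from 59.8% to 49.6% at day 9, from 64.6% to 48.8% between days 3 and 6 and from 40.3% to 57.1% between days 6 and 9. The rbcS median was then -4.29 at day 6 and -4.10 at day 9, PRK B03 was at -1.38 and -1.55 and PRK B01 at 1.14 and 1.43. With at least 5 FPKM required, 12593 of 27103 tested genes fell at day 6. Same-numbered libraries of different days did not deviate together (r of -0.027 to 0.038 over 18 pairs), and with the replicate block 5, 6 and 6 rbcS genes fell on days 3, 6 and 9 as before, while all genes lower at day 6 went from 19407 to 19279. Precision is limited by 3 libraries a day and unknown read depth, which bears most on genes near 1 FPKM.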

Other observations

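A gene named SCAMP, Pag.A03G001343.v3.1, ran at nearly the level of PRK B03, with 164 FPKM as the mean of day 0, 136 at day 3, 43.4 at day 6 and 39.1 at day 9. It was singled out after its values were seen. Its log2 changes were -0.27 (SE 0.05), -1.89 (SE 0.05) and -2.04 (SE 0.05) on days 3, 6 and 9, beside -0.18, -1.65 and -1.76 for PRK B03, and its root-mean-square difference from that gene over the 9 drought libraries was 0.219, number 155 in order among 13810 genes. The other 6 tested SCAMP genes changed by between -0.18 and 0.21 at day 6. No PRK gene carries an A03 identifier, and the table gives no term for phosphoribulokinase to any model beyond the 3 named ones.

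Beside the rbcS and rbcL names, 4 models without a KO name carry the GO term ribulose-bisphosphate carboxylase activity. Of these 3 are listed at 0 in every library, and Pag.A07G000878.v3.1 is at 28.3 FPKM in replicate 2 of day 0 and at 0 in the other libraries.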
